A study of Bos taurus with 10 samples.

Results

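The change from the 8/16-cell stage to the morula was followed in bovine (Bos taurus) embryos whose zygotes had received small interfering RNA (siRNA) that targets H1FOO, a linker histone made by the oocyte (knockdown, KD). These embryos gave 5 of the 10 libraries of the series: 2 from 8/16-cell embryos, taken 4 days after insemination, and 3 from morulae, taken 5.5 days after insemination. The other 5 libraries came from embryos that had received negative control siRNA as zygotes (NC), again 2 at the 8/16-cell stage and 3 at the morula stage. NC values are set beside the KD values and enter a test of the difference between the stage changes. All 4 groups share the injection, and none is uninjected. The number of embryos behind each library and the separateness of the replicates are not given in the sources used here, so a p-value covers the spread among these libraries and no more. Of 28698 gene symbols that stand on 1 line of the table, the 11715 that averaged 1 FPKM or more in the 5 KD libraries were tested. The other 16983 lay below that level, and 7858 of them were listed at 0 in all 5 KD libraries. A gene below 1 FPKM in every KD library of 1 stage passed this filter only through the other stage. The mean of such a gene could only lie higher at that other stage.

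A mammalian embryo begins on RNA and protein that the oocyte stored. In cattle the embryonic genome takes over transcription around the 8/16-cell stage while stored messengers are broken down. By the morula stage the cells compact, become polarised and adhere to each other, and the outer and inner cells start on the paths to trophectoderm and inner cell mass. Linker histones bind the DNA between nucleosomes, and H1FOO is the form of the oocyte and the first cleavages, which somatic linker histones later replace.

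H1FOO itself was low at both stages of KD embryos. It stood at 0.649 and 0.0736 FPKM in the 8/16-cell libraries and at 0.0610, 0.191 and 0.251 FPKM in the morula libraries, below the level for testing. The ranges of the 2 stages overlapped. In NC embryos the values were 50.8 and 10.8 FPKM at the 8/16-cell stage and 0.294, 1.05 and 2.17 FPKM in morulae. Both KD 8/16-cell libraries lay below both NC 8/16-cell libraries, and all KD morulae lay below all NC morulae.

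FPKM is a count of fragments divided by transcript length and by the size of the library, so each value is a share of its library, and the read depth behind it is unknown. Summed over the genes kept, the KD libraries held between 361874 and 488453 FPKM, with 11180 to 11870 genes at 1 FPKM or more. Pearson correlations of the log2 values across genes were 0.957 between the 8/16-cell libraries, 0.938 to 0.958 among the morula libraries and 0.872 to 0.912 across the stages. The stages lay apart along the first principal component (57.4% of the variance). The second, with 18.3%, set morula replicate 3 apart from the other morula libraries. For 81 symbols on several lines, which were left out, the 8/16-cell columns repeat 1 row of values and the morula columns differ from line to line in 75 cases. A difference in how the columns of each stage were made cannot be told apart from stage.

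Of the 40 gene lists described below, the oocyte secreted factors and zona proteins and the subcortical maternal complex had the lowest median changes in KD embryos (-2.09 and -1.11 on the log2 scale). Core histones (0.93) and inner cell mass genes (0.76) had the highest. In limma, on log2(FPKM + 1) values and at a Benjamini-Hochberg adjusted p under 0.05, 2106 of 11715 genes passed (18%): 568 rose (4.85%) and 1538 fell (13.1%). The counts of calls in each list below are to be read against these shares of all genes. Changes of at least 2-fold on that scale were found for 369 of the rises (3.15% of all genes) and 870 of the falls (7.43%). The morula and 8/16-cell values did not overlap for 6280 genes (53.6%), 1950 of them higher (16.6%) and 4330 lower (37%) in morulae. All log2 changes are morula minus 8/16-cell, with their standard error (SE), on the log2(FPKM + 1) scale, which understates the change of genes near or below 1 FPKM.

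The balance of rises and falls depended on the scaling. The median change of all genes was -0.19 for FPKM as deposited and -0.03, -0.01 and 0.00 after libraries were set to an equal sum, quantile-normalised or set to equal medians. Of the genes that passed, 27.0% rose as deposited, against 51.5% of 1113, 52.0% of 1578 and 53.6% of 1511 under those 3 scalings. A total of 499 rises and 467 falls passed under all 4. A gene named below that passed as deposited but not under all 4 scalings is marked as such. With 1 library left out, 80 genes passed without 8/16-cell replicate 1 and 42 without replicate 2, and 460, 592 and 1475 without morula replicates 1, 2 and 3. Without an 8/16-cell replicate that stage has 1 library, which is assumed to vary as the morulae do, so these are counts of genes that still reach the threshold in a smaller design. They do not measure the size of a change. The median over all genes was -0.20 and -0.17 in those 2 fits, but single lists could move further. Oxidative phosphorylation had medians of 0.40 and -0.12 and the interferon response of -1.21 and -0.46. The oocyte secreted factors and zona proteins stayed at -2.10 and -2.06. The counts given below for such fits are to be read in the same way.

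**Figure D1:**
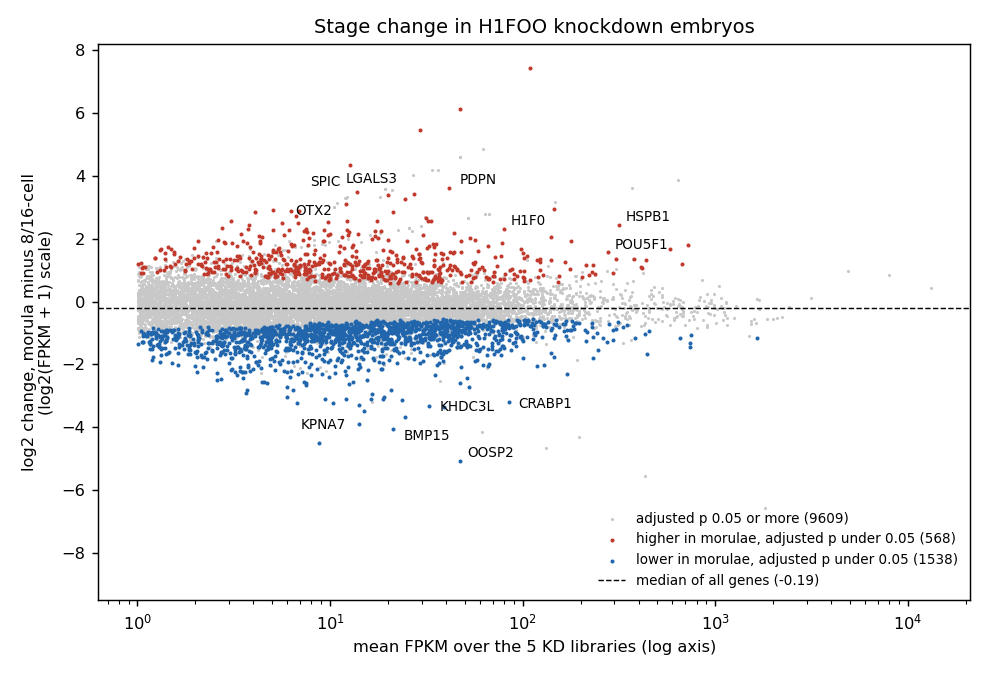
Change between stages in KD embryos (vertical axis, log2(FPKM + 1), morula minus 8/16-cell) against the mean FPKM of the 5 KD libraries (horizontal log axis), 1 point per gene. Red and blue points are the 568 genes that rose and the 1538 that fell at an adjusted p under 0.05, and the dashed line marks the median of all genes at -0.19, below 0.

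OOSP2, a protein that the oocyte secretes, had the largest fall among the genes with a gene symbol and a mean of at least 10 FPKM. It stood at 88.1 and 142 FPKM in the 8/16-cell libraries and at 0.980, 4.02 and 2.81 FPKM in the morula libraries (log2 change -5.07, SE 0.40, adjusted p 0.00331). BMP15, a growth factor by which the oocyte acts on the cells around it, went from 38 and 61.5 FPKM to 1.03, 2.98 and 2.21 FPKM (-4.06, SE 0.34, adjusted p 0.00341). Each was lower in every morula library than in either 8/16-cell library, and replicate 1 was the lowest of the morulae for both.

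The other large falls had the same separation of the stages. KPNA7, the importin alpha of oocytes and early embryos, changed by -3.89, and EIF4E1B, the cap-binding factor of the oocyte, by -3.67. BTG4, an adaptor of the deadenylase that removes maternal messengers, stood at 30.4 and 37.9 FPKM and then at 1.25, 3.18 and 2.34 FPKM (-3.47, SE 0.29). CRABP1, which binds retinoic acid inside the cell, fell from 148 and 222 FPKM to 18.5, 20.8 and 17.2 FPKM (-3.20, SE 0.21). ACCSL (-3.28), NLRP8, an oocyte member of the NLR family (-3.23), and MBD3L3 (-3.35, not under all 4 scalings) completed the 10 largest together with KHDC3L, described with its complex.

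As a group, the oocyte secreted factors and zona proteins had all 11 tested members lower in morulae (median -2.09, against -0.19 for all genes). Of these, 10 fell, 8 of them under all 4 scalings, and 5 of the 16 members lay below 1 FPKM. ZP3, a glycoprotein of the coat around the egg, went from 21 and 15.6 FPKM to 2.0, 3.57 and 3.25 FPKM (-2.30, SE 0.26, adjusted p 0.00601), and ZP2 (-2.09) and ZP4 (-2.0) fell with it. GDF9, the partner of BMP15, dropped from 7.64 and 12.4 FPKM to 0.630, 1.10 and 0.834 FPKM (-2.55, SE 0.27). For these 4 genes every morula library lay below both 8/16-cell libraries. MOS, the kinase that holds the egg in meiotic arrest, stood at 33.7 and 47.1 FPKM and then at 1.56, 4.35 and 8.10 FPKM (-3.03, SE 0.48), with replicate 3 the highest of the morulae. ASTL, the protease that hardens the zona (-1.38), SOHLH2 (-1.37) and the receptor KIT (-1.04) also fell, the last 2 not under all 4 scalings, and SOHLH1 did not pass (-1.12, adjusted p 0.0514). Without 8/16-cell replicates 1 and 2 the list median was -2.10 and -2.06, while 4 and 2 members passed as lower. Without morula replicates 1, 2 and 3 the number was 7, 7 and 10.

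Members of the subcortical maternal complex and other maternal-effect genes, proteins laid down in the egg on which the first divisions depend, followed the same course: 8 of 14 tested members fell, 7 of them under all 4 scalings, and none rose (median -1.11; 4 of 18 lay below 1 FPKM). KHDC3L stood at 80.2 and 63.6 FPKM in the 8/16-cell libraries and at 5.86, 7.24 and 5.90 FPKM in the morulae, which lay close together (-3.31, SE 0.19, adjusted p 0.00103). ZAR1 changed by -2.21, NPM2, the histone chaperone of the egg, by -1.64, PADI6 by -1.60, NLRP9 by -1.47, NLRP5 by -1.35 and DPPA3 by -1.17. TLE6 fell but not under all 4 scalings (-1.05). OOEP, a further member of the complex chosen after its values were seen, did not follow them. It stood at 4.01 and 9.17 FPKM and then at 8.48, 12.9 and 13.6 FPKM, overlapping ranges that did not pass (0.80, SE 0.34, adjusted p 0.135). Without 8/16-cell replicates 1 and 2 the list median was -1.06 and -1.15, while 2 members passed in each case, with 4, 5 and 8 without the morula replicates in turn.

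Of 26 genes of maternal messenger decay and translation control, 10 fell (38.5%, against 13.1% of all genes), 5 of them under all 4 scalings. The 1 rise is 3.85%, against 4.85% of all genes (median -0.57; 3 of 29 lay below 1 FPKM). YBX2, which packages stored messengers in germ cells, went from 105 and 118 FPKM to 28.2, 38.9 and 34.1 FPKM (-1.71, SE 0.19, adjusted p 0.00601). Its morula values lay close together, all below both 8/16-cell libraries. ZAR1L (-2.57) and CPEB1, which controls the polyadenylation of stored messengers (-1.80), fell under all 4 scalings, and PATL2 (-1.09), CPEB2 (-0.97) and the deadenylase subunit CNOT7 (-0.74) fell but not under all 4. Without 8/16-cell replicates 1 and 2 the list median was -0.69 and -0.42, with 3 and 0 members passing as lower, and 5, 5 and 7 passed without the morula replicates.

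**Figure D2:**
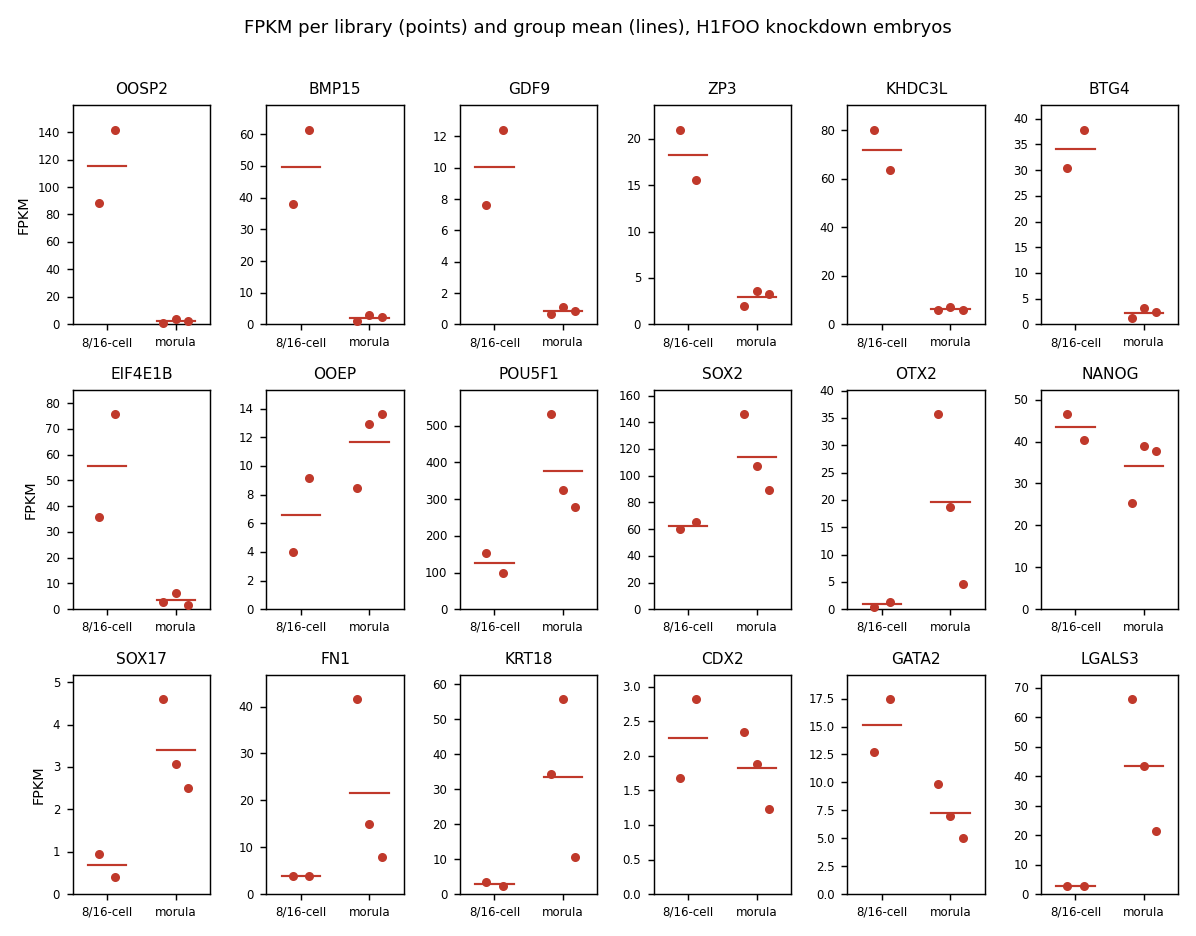
FPKM (vertical axes, from 0) of 18 genes in each KD library, 8/16-cell at the left (2 points) and morula at the right (3 points) of each panel, with the group mean as a line. The oocyte genes OOSP2 to EIF4E1B drop to near 0 in all 3 morula libraries, POU5F1 and SOX2 lie higher in every morula library, and the points of OOEP and CDX2 overlap between the stages.

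Genes switched on around genome activation moved little as a list. Of 18 tested, 2 rose and 1 fell (median -0.13; 1 of 19 lay below 1 FPKM). NFYB, a subunit of a transcription factor that binds CCAAT boxes, fell from 37.8 and 43.5 FPKM to 12.9, 15.1 and 10.5 FPKM (-1.60, SE 0.20, adjusted p 0.00741), and PDHA1, a subunit of pyruvate dehydrogenase, rose (1.17). ZNF280A rose just within the threshold (0.85, adjusted p 0.0498). The homeobox genes DUXA and ARGFX, which belong to the burst at genome activation, had lower means in morulae without passing. DUXA stood at 581 and 489 FPKM and then at 126, 238 and 385 FPKM (-1.23, SE 0.42, adjusted p 0.0788), and ARGFX at 184 and 197 FPKM and then at 78.6, 125 and 162 FPKM (-0.70, adjusted p 0.129). For both genes the stages did not overlap, and the morulae were spread out, with replicate 1 the lowest and replicate 3 the highest.

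PDPN, a membrane glycoprotein of epithelia, had the largest rise among genes with a gene symbol and a mean of at least 10 FPKM, at 3.73 and 2.45 FPKM in the 8/16-cell libraries and 133, 50.5 and 16.7 FPKM in the morulae (log2 change 3.62, SE 0.72, adjusted p 0.0201). All 3 morulae lay above both 8/16-cell libraries but differed widely among themselves, with replicate 1 the highest and replicate 3 the lowest. SPIC, a transcription factor of the ETS family, went from 2.17 and 0.252 FPKM to 27.9, 23 and 15.6 FPKM (3.5, SE 0.41). LGALS3, a galectin that binds sugars at the cell surface, rose from 2.77 and 2.74 FPKM to 66.1, 43.3 and 21.4 FPKM (3.43, SE 0.41, adjusted p 0.00672). The order of the morulae was the same for these 3 genes. PCED1B (3.39), the galectin LGALS4 (3.27), BRB (2.65), the actin-binding protein DBN1 (2.58) and the dipeptidase PEPD (2.56) also rose, as did OTX2 and KRT18, which are described with their lineages. HSPB1, a small heat shock protein, climbed from 91.4 and 69.5 FPKM to 726, 389 and 304 FPKM (2.45, SE 0.36, adjusted p 0.00971).

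Morula replicate 1 was the library farthest from the 8/16-cell stage for more than its share of the calls. These genes were chosen by the same values, so the shares are a description. It was the highest of the 3 morulae for 339 of the 568 genes that rose (59.7%, against 34.8% of all genes) and the lowest for 787 of the 1538 that fell (51.2%, against 33.1% of all genes). The median distance of the genes that rose from the 8/16-cell mean was 1.26, 1.10 and 0.97 log2 units in morula replicates 1, 2 and 3, and that of the genes that fell was -1.13, -0.96 and -1.03. Without morula replicates 1, 2 and 3, 117, 134 and 467 genes passed as higher and 343, 458 and 1008 as lower.

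Among genes of the inner cell mass and epiblast, 7 of 23 tested members rose (30.4%, against 4.85% of all genes), 6 of them under all 4 scalings. The 1 fall is 4.35%, against 13.1% of all genes (median 0.76; 4 of 27 lay below 1 FPKM). In RNA of whole embryos, more cells of a type and more RNA per cell cannot be told apart. POU5F1, the transcription factor OCT4 of pluripotent cells, stood at 152 and 97.4 FPKM in the 8/16-cell libraries and at 531, 324 and 277 FPKM in the morulae (log2 change 1.57, SE 0.32, adjusted p 0.0221). SOX2, its partner on DNA, stood at 60.2 and 65.0 FPKM and then at 146, 107 and 89.1 FPKM (0.83, SE 0.23, adjusted p 0.0454). Every morula library lay above both 8/16-cell libraries for these genes, and replicate 1 was again the highest. OTX2, a homeobox factor of the epiblast, rose from 0.485 and 1.27 FPKM to 35.6, 18.6 and 4.62 FPKM (3.12, SE 0.69, adjusted p 0.0270).

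NANOG, the third core factor of the epiblast, did not pass: it stood at 46.5 and 40.2 FPKM and then at 25.4, 39.0 and 37.8 FPKM (-0.36, SE 0.22, adjusted p 0.281). All 3 morulae lay below both 8/16-cell libraries, but 2 of them by little. FGF4, the growth factor that the epiblast sends to its neighbours, was listed at 0 in both 8/16-cell libraries and stood at 6.17, 3.41 and 0.782 FPKM in the morulae (adjusted p 0.0447, not under all 4 scalings), and no fold is given against 0. DPPA2 (1.08), TBX3 (1.02) and DPPA4 (0.95) rose as well, and ETV5, a target of FGF signals, fell but not under all 4 scalings (-1.28). No gene of the list passed as higher without 8/16-cell replicate 1, 8/16-cell replicate 2 or morula replicate 1 (list medians 0.45, 0.60 and 0.57), 1 did without morula replicate 2, and 8 did without morula replicate 3.

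For primitive endoderm, the second lineage of the inner cell mass, 2 of 18 tested members rose and none fell (median 0.33; 4 of 22 lay below 1 FPKM). SOX17, a transcription factor of endoderm, went from 0.947 and 0.410 FPKM to 4.60, 3.07 and 2.5 FPKM (1.38, SE 0.30, adjusted p 0.0248), and LAMB1, a laminin chain of basement membrane, from 6.22 and 5.15 FPKM to 22.8, 19.4 and 11.7 FPKM (1.46, SE 0.29, adjusted p 0.0201). GATA6 stood at 121 and 124 FPKM and then at 241, 169 and 142 FPKM without passing (0.55, adjusted p 0.141). FN1, which encodes the matrix protein fibronectin, stood at 3.80 and 3.93 FPKM and then at 41.5, 14.9 and 8.00 FPKM, and did not pass (1.91, SE 0.56, adjusted p 0.0542). The stages did not overlap for any of these 4 genes. PDGFRA stood at -1.04 (adjusted p 0.0812) and COL4A1 at 0.59 (adjusted p 0.119). Neither SOX17 nor LAMB1 passed without either of the 8/16-cell libraries or without morula replicate 1 or 2, and 4 members rose and 2 fell without morula replicate 3.

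Trophectoderm genes did not rise as a group: 1 of 16 tested members rose and 2 fell (6.25% and 12.5%, near the 4.85% and 13.1% of all genes; median -0.42; 9 of 25 lay below 1 FPKM). KRT18, a keratin of simple epithelia, went from 3.60 and 2.37 FPKM to 34.4, 55.7 and 10.6 FPKM (2.86, SE 0.59, adjusted p 0.0226). Its partner keratin KRT8 stood at 12.4 and 9.12 FPKM and then at 10.2, 6.80 and 3.77 FPKM (-0.64, adjusted p 0.232), so that the 2 keratins lay to opposite sides. CDX2, the factor of trophectoderm identity, stood at 1.68 and 2.82 FPKM in the 8/16-cell libraries and at 2.34, 1.88 and 1.23 FPKM in the morulae (-0.20, SE 0.29, adjusted p 0.641). The ranges overlapped, and CDX2 was under 3 FPKM in all 5 libraries.

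GATA2, a further factor of trophectoderm, stood at 12.8 and 17.4 FPKM and then at 9.86, 6.95 and 5.05 FPKM (-0.98, SE 0.28, adjusted p 0.0513). GATA3 stood at 0.708 and 2.42 FPKM and then at 1.09, 0.975 and 0.583 FPKM (-0.37, adjusted p 0.468), and TFAP2C at 107 and 116 FPKM and then at 88.0, 91.9 and 86.8 FPKM (-0.33, adjusted p 0.176). Every morula library was below both 8/16-cell libraries for GATA2 and TFAP2C, and the ranges of GATA3 overlapped. ELF3, an epithelial ETS factor, fell (-1.43), and TFAP2A fell but not under all 4 scalings (-0.89). No gene of the list passed without either of the 8/16-cell libraries or without morula replicate 1, and 1 fell without morula replicate 2.

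**Figure D3:**
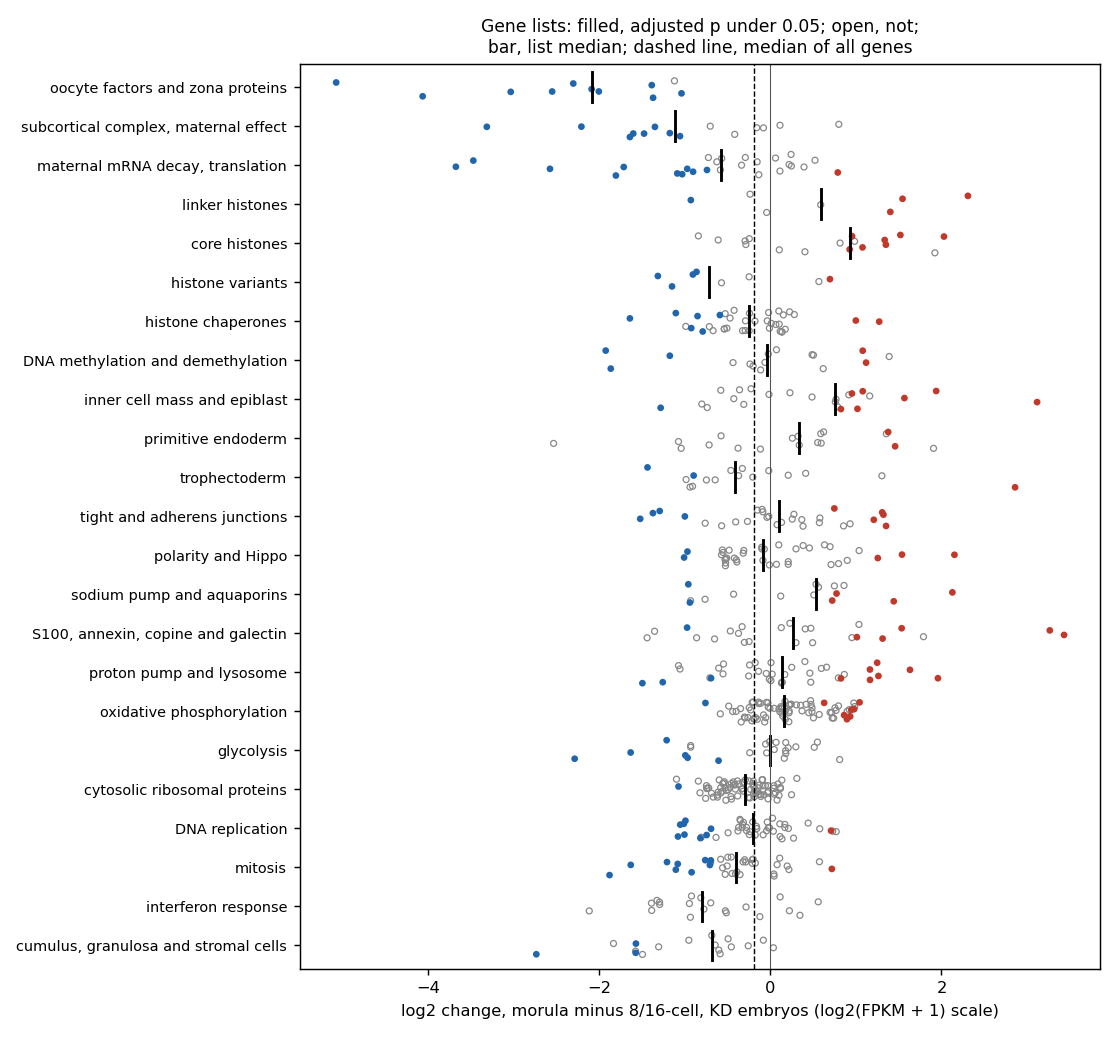
Log2 change between stages in KD embryos (horizontal axis, log2(FPKM + 1) scale) of the tested members of 23 gene lists, 1 point per gene, with the list median as a bar and the median of all genes (-0.19) as a dashed line. Filled points passed at an adjusted p under 0.05 (red higher, blue lower in morulae) and open points did not. The bars of the oocyte and maternal lists at the top lie to the left of the dashed line. Those of core histones (0.93) and of inner cell mass genes (0.76) lie to its right.

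Genes of compaction and of the epithelium moved in both directions. CDH1, the adhesion molecule E-cadherin, stood at 125 and 151 FPKM in the 8/16-cell libraries and at 176, 151 and 128 FPKM in the morulae, overlapping ranges that did not pass (0.13, SE 0.20, adjusted p 0.666). Of 28 tight and adherens junction genes, 5 rose (17.9%, against 4.85% of all genes) and 4 fell (14.3%, near the 13.1% of all genes). Under all 4 scalings 4 rose and 1 fell (median 0.11 as deposited; 3 of 31 lay below 1 FPKM). CTNND1, the catenin p120 that keeps cadherins at the membrane, went from 16.5 and 18.3 FPKM to 60.3, 47.2 and 31.8 FPKM (1.32, SE 0.27), and the tight junction genes CLDN6 (1.35) and CGN (1.21) rose too. AFDN, which ties junctions to actin, rose but not under all 4 scalings (0.75). EPCAM, an adhesion molecule of epithelia, fell from 53.1 and 38.4 FPKM to 14.6, 15.6 and 15.2 FPKM (-1.52, SE 0.19, adjusted p 0.00724). CXADR (-1.29) and JAM2 (-1.0) fell but not under all 4 scalings. Without the 8/16-cell replicates in turn 0 and 0 of these genes passed as higher and 0 and 1 as lower, and without morula replicates 1 and 2 none as higher and 1 and 2 as lower.

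Desmosomes anchor keratin filaments to the cell border. Of 10 tested members, none rose and 2 fell as deposited, PKP4 (-1.16) and DSC2 (-1.40), neither under all 4 scalings (median 0.30; 5 of 15 lay below 1 FPKM). DSP, which joins the filaments to the plaque, stood at 0.870 and 1.59 FPKM and then at 2.53, 2.16 and 1.26 FPKM (0.41, adjusted p 0.346). The cadherin DSG2 stood at 7.59 and 8.62 FPKM and then at 19, 12.0 and 9.40 FPKM (0.62, adjusted p 0.167). DSP overlapped between the stages and DSG2 did not. The other members, PKP3 (1.03), PERP (0.62), JUP (0.37), PKP2 (0.23), EVPL (-0.74) and DSC3 (-0.88), did not pass either.

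In the polarity and Hippo list, which covers the outside-inside signal that precedes trophectoderm, 3 of 37 tested members rose and 2 fell (median -0.09; 4 of 41 lay below 1 FPKM). These are 8.11% and 5.41%, against 4.85% and 13.1% of all genes. WWTR1, a coactivator that the Hippo kinases hold in the cytoplasm, went from 29.0 and 31.3 FPKM to 81.3, 75.7 and 64.1 FPKM (1.26, SE 0.17, adjusted p 0.00855). AMOTL2, an angiomotin that binds such coactivators, rose from 3.27 and 1.66 FPKM to 20.9, 16.4 and 7.79 FPKM (2.15, SE 0.41). MSN, an ezrin-family linker of membrane and actin, rose (1.54), while RDX of the same family fell but not under all 4 scalings (-0.97). RHOA, the small GTPase of cortical contraction, fell from 357 and 338 FPKM to 164, 164 and 191 FPKM (-1.01, SE 0.18). The stages did not overlap for any of these 5 genes. None of the list passed without either of the 8/16-cell libraries, and 1 gene rose without morula replicate 1 and 1 without morula replicate 2.

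For the pumps and channels that later fill the blastocyst cavity, 4 of 15 tested genes rose (26.7%, against 4.85% of all genes). Another 2 fell (13.3%, near the 13.1% of all genes). The list median was 0.53, and 5 of 20 lay below 1 FPKM. SLC9A3R1, a scaffold of apical transporters, went from 14.4 and 10.7 FPKM to 46.7, 29.8 and 32.1 FPKM (1.44, SE 0.24, adjusted p 0.0141). AQP3, a water and glycerol channel, rose from 156 and 128 FPKM to 224, 259 and 246 FPKM (0.77, SE 0.18). Both had all morulae above both 8/16-cell libraries. FXYD4, a regulator of the sodium pump, rose (2.13), and the pump subunit ATP1B1 (-0.96) and SLC12A2 (-0.94) fell but not under all 4 scalings. Among S100, annexin, copine and galectin genes 1 of 24 fell (4.17%, against 13.1% of all genes; the list median was 0.27, and 3 of 27 lay below 1 FPKM). The rises were 5 (20.8%, against 4.85% of all genes). Beside the 2 galectins these were ANXA6 (1.53), S100A4 (1.31) and ANXA2 (1.01), and LGALS8 fell but not under all 4 scalings (-0.97). In the first list 1 gene passed as higher without 8/16-cell replicate 1, none without replicate 2 and 1 without each morula replicate, and in the second list 2 and 1 passed as higher without the 8/16-cell replicates and 3, 2 and 4 without the morula replicates.

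Histone genes split by kind. The linker histone HIST1H1E, the core histones H2B, HIST1H2AC, HIST1H2BA and HIST1H2BB and the variant H3F3C stand on several lines and were left out. The counts below therefore do not cover whole families. Of 7 tested linker histones, 3 rose under all 4 scalings (42.9%, against 4.85% of all genes). A fall was found for 1 (14.3%, against 13.1% of all genes), not under all 4 (median 0.59; 1 of 8, H1FOO, lay below 1 FPKM). H1F0, the replacement linker histone of non-dividing cells, went from 21.3 and 23.4 FPKM at the 8/16-cell stage to 98.1, 95.5 and 161 FPKM in morulae (log2 change 2.31, SE 0.25, adjusted p 0.00601). HIST1H1C rose from 53.3 and 36.0 FPKM to 84.0, 135 and 193 FPKM (1.55, SE 0.34, adjusted p 0.0274) and HIST1H1D from 13.8 and 6.35 FPKM to 22.2, 30.0 and 28.1 FPKM (1.40, SE 0.31, adjusted p 0.0259). The stages did not overlap for these 3, and morula replicate 3 was the highest for H1F0 and HIST1H1C. HIST1H1A stood at 8.57 and 12.2 FPKM and then at 4.34, 5.39 and 5.06 FPKM (-0.93, adjusted p 0.0335, not under all 4 scalings). H1FX (0.59, adjusted p 0.150), H1FNT (-0.24) and HIST1H1B (-0.04, and between 0.12 and 0.15 under the other scalings) did not pass. Without 8/16-cell replicates 1 and 2, 1 and 0 linker histones passed as higher (list medians 0.63 and 0.55), and without the morula replicates in turn 2, 1 and 1.

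Core histones, the proteins of the nucleosome itself, had 7 of 17 tested members that rose, all under all 4 scalings (41.2%, against 4.85% of all genes). None fell, against 13.1% of all genes (median 0.93; 3 of 20 lay below 1 FPKM). HIST1H2BN, an H2B gene, went from 18.9 and 16.7 FPKM to 61.9, 67.9 and 103 FPKM (2.03, SE 0.24, adjusted p 0.00662). HIST2H2BE, also H2B, rose from 20.1 and 15.3 FPKM to 52.6, 48.8 and 55.4 FPKM (1.52, SE 0.18, adjusted p 0.00662). The H2A genes HIST1H2AK (1.35), HIST2H2AA4 (1.34) and HIST1H2AG (0.96) and the H2B genes HIST1H2BI (1.08) and HIST1H2BJ (0.93) also rose. All 7 are H2A or H2B genes, but 14 of the 17 tested members are, with 3 H3 genes and no H4 gene. The symbol H4, outside the list and chosen after its values were seen, stood at 4.02 and 2.30 FPKM and then at 10.8, 25.5 and 20.1 FPKM and rose under all 4 scalings (2.20, SE 0.36, adjusted p 0.0136). Histone genes exist in near-identical copies between which reads can be split, which makes the value of any 1 copy uncertain.

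The summed FPKM of the 20 listed core histone genes, without those on several lines, was 726 and 656 in the 8/16-cell libraries. In the morulae it was 1366, 1391 and 2073. The number of members that passed as higher was 1 without 8/16-cell replicate 1 and 0 without replicate 2, where the list median was 0.70 and 0.65, and 2, 4 and 4 without the morula replicates. The 18S ribosomal RNA gene RN18S1, chosen after its values were seen, stood at 5640 and 5098 FPKM and then at 9053, 8553 and 11581 FPKM (0.85, SE 0.39, adjusted p 0.163). Like most histone messengers it lacks a poly(A) tail, and the libraries were made from poly(A) RNA. Its values moved with those of the histones, and its part in them was not tested.

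Histone variants, which replace core histones outside replication, went the other way: 4 of 8 tested members fell and 1 rose (median -0.72; 1 of 9 lay below 1 FPKM). H2AFZ, the variant H2A.Z of promoters, fell from 558 and 590 FPKM to 255, 233 and 290 FPKM (-1.15, SE 0.19, adjusted p 0.0141). CENPA, the histone H3 of centromeres, stood at 67.5 and 60.5 FPKM and then at 35.6, 36.0 and 29.8 FPKM (-0.90, adjusted p 0.0182), and H2AFY (-1.31) and H3F3A (-0.86) fell with it, these 3 not under all 4 scalings. H2AFJ rose (0.70, adjusted p 0.0400). H2AFX (0.57), H2AFV (-0.25) and H3F3B (-0.57) did not pass. None of the 8 passed without either of the 8/16-cell libraries or without morula replicate 1, and 1 and 3 fell without morula replicates 2 and 3.

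**Figure D4:**
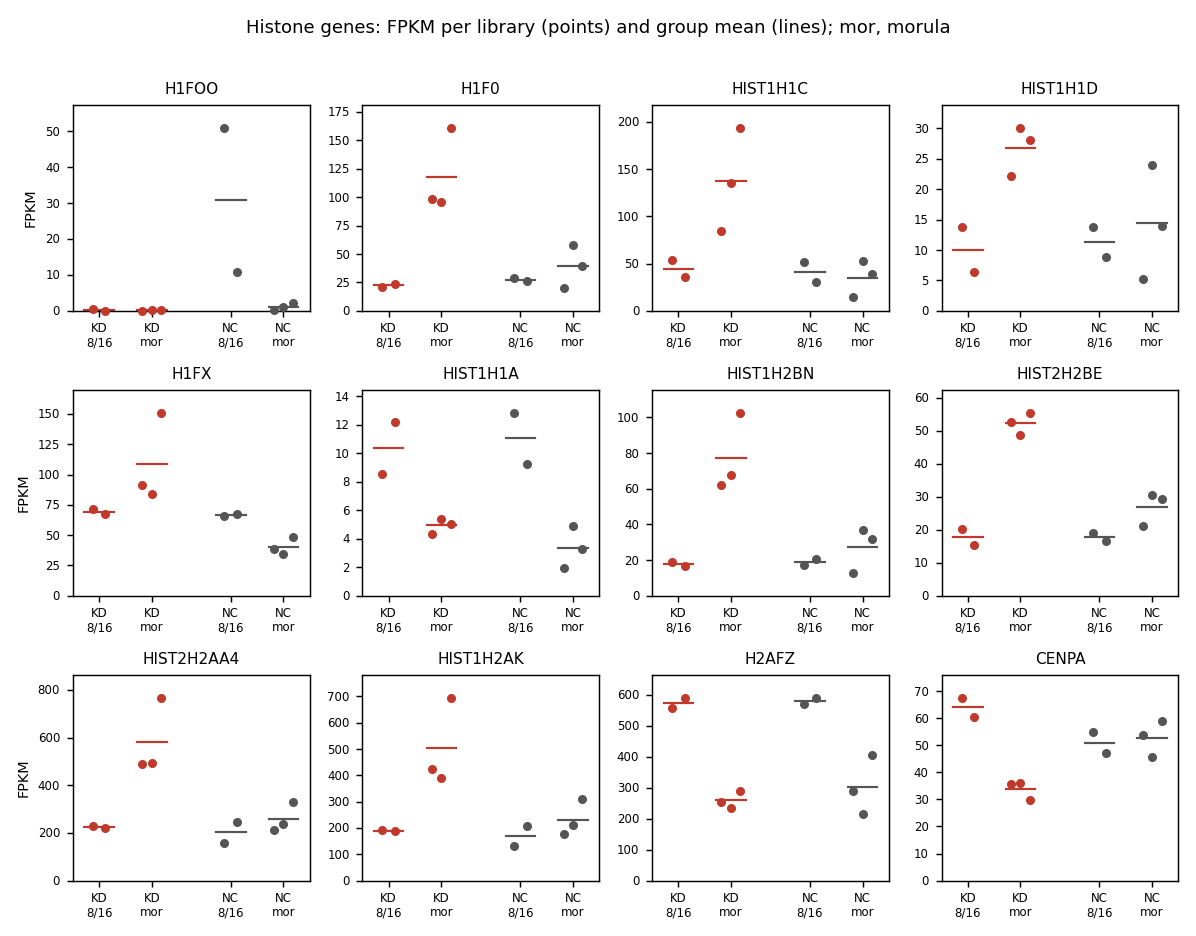
FPKM (vertical axes, from 0) of 12 histone genes in each library, KD in red (2 libraries at 8/16 cells, 3 morulae, marked mor) and NC in grey (likewise), with the group mean as a line. The KD morula points of H1F0, HIST1H2BN and HIST2H2BE lie above all other points of their panels, while H2AFZ is lower in the morulae of both treatments.

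Of 37 chaperones that hand histones to DNA, 2 rose and 6 fell, which at 5.41% and 16.2% is near the 4.85% and 13.1% of all genes (median -0.25; 1 of 38 lay below 1 FPKM). SUPT16H, a subunit of the FACT complex, rose from 10.6 and 12.4 FPKM to 35.2, 31.4 and 22.3 FPKM (1.27, SE 0.23, adjusted p 0.0164), and ATRX rose (1.0). Beside NPM2, the falls were HAT1, which acetylates new histone H4 (-0.85), ASF1B (-1.10), ANP32B (-0.92), SPTY2D1 (-0.79) and RBBP4 (-0.59), these 5 not under all 4 scalings. Of 16 DNA methylation and demethylation genes, 2 rose (12.5%) and 3 fell (18.75%) under all 4 scalings, against 4.85% and 13.1% of all genes (median -0.04; 4 of 20 lay below 1 FPKM). UHRF1, which brings maintenance methylation to new DNA, fell from 12.9 and 24.1 FPKM to 4.13, 4.43 and 3.30 FPKM (-1.92, SE 0.29, adjusted p 0.0103), and MBD2, a reader of methylated DNA, from 37.6 and 35.0 FPKM to 6.66, 12.3 and 9.54 FPKM (-1.86, SE 0.25). TET1, which oxidises methylcytosine, rose from 8.46 and 8.16 FPKM to 19.7, 19.1 and 18.9 FPKM (1.12, SE 0.17), and TRIM28 rose (1.08). The stages were separate for each of these genes. Of 49 heterochromatin, Polycomb and remodelling genes, 4 rose (8.16%, against 4.85% of all genes): JARID2 (1.37), KDM6B (1.26), KDM4A (0.88) and CBX1 (0.72). SUV39H2 (-1.19) and RNF2 (-0.66) fell but not under all 4 scalings (4.08%, against 13.1% of all genes), and the list median was 0.05. Without 8/16-cell replicate 1 no gene of the 3 lists passed as higher and 1 methylation gene did as lower, and without replicate 2 none passed. Chaperones and the 49 chromatin genes also had no call without morula replicate 1 or 2.

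Among nuclear genes of oxidative phosphorylation, 7 of 77 rose and 1 fell (9.09% and 1.30%, against 4.85% and 13.1% of all genes). The list median was 0.16, and between -0.12 and 0.40 when 1 library was left out. CYC1, a subunit of complex III, stood at 110 and 99.8 FPKM and then at 260, 156 and 253 FPKM (1.04, SE 0.25, adjusted p 0.0328). UQCRC1 (0.98), NDUFA8 (0.95), SDHC (0.93), ATP5F1A (0.90), COX7C (0.86) and NDUFA10 (0.63) rose as well, while NDUFB2 fell but not under all 4 scalings (-0.76). Morula replicate 2 was the lowest of the morulae for all 7. None of them passed without either of the 8/16-cell libraries or without morula replicate 1 or 3, and 6 did without morula replicate 2. In the citric acid cycle, 2 of 25 rose, PDHA1 (1.17) and MDH2 (0.77), and 2 fell but not under all 4 scalings, ACSS1 (-1.08) and SUCLA2 (-0.66). Each count is 8.0% of that list, against 4.85% higher and 13.1% lower of all genes. Glycolysis had no rise and 6 falls among 23 tested genes (26.1%, against 13.1% of all genes; 1 of 24 lay below 1 FPKM). The list as a whole did not fall: 11 members had estimates above 0 and 12 below, with a median of -0.01 against -0.19 for all genes. LDHA, which makes lactate, fell from 22.9 and 19.4 FPKM to 3.84, 2.09 and 5.19 FPKM (-2.28, SE 0.31, adjusted p 0.00802), and PDK1, which holds back pyruvate dehydrogenase, fell (-1.63). ENO1 (-1.21), PFKFB3 (-0.99), SLC16A3 (-0.97) and HK2 (-0.60) fell but not under all 4 scalings. No member of these lists passed without either of the 8/16-cell libraries, and 2 glycolysis genes fell without morula replicate 1 and 2 without morula replicate 2.

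Lysosomal genes and subunits of the proton pump had 7 rises and 3 falls among 37 (median 0.13; 1 of 38 lay below 1 FPKM). As shares, 18.9% rose and 8.11% fell, against 4.85% and 13.1% of all genes. LAMP2, a protein of the lysosomal membrane, rose from 17 and 14.2 FPKM to 45.6, 38.1 and 32.6 FPKM (1.25, SE 0.20). Every morula library lay above both 8/16-cell libraries. GLA (1.17), PSAP (0.83) and the pump subunit ATP6V0A4 (1.96) rose, the protease CTSC fell (-1.49), and LMBRD1 (-1.26) and ATP6V1B2 (-0.69) fell but not under all 4 scalings. None passed without either of the 8/16-cell libraries, and 2 rose and 1 fell without morula replicate 1, as without morula replicate 2.

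Genes of DNA replication had shares of calls near those of all genes, of which 13.1% fell and 4.85% rose. In replication, 8 of 45 fell (17.8%) and 1 rose (2.22%), with a median of -0.20 against -0.19 for all genes. Among these, PCNA, the sliding clamp, was the fall that passed under all 4 scalings, beside 1 rise that did. PCNA stood at 120 and 100 FPKM and then at 50.2, 49.9 and 57.2 FPKM (-1.05, SE 0.17, adjusted p 0.0129). The licensing factors CDT1 (-1.0) and CDC6 (-1.01) and the helicase subunits MCM4 (-0.82) and MCM7 (-0.74) fell but not under all 4 scalings. In mitosis, 9 of 35 fell (25.7%), 4 of them under all 4 scalings, and 1 rose (2.86%; median -0.41; 1 of 36 lay below 1 FPKM). CDK1, the kinase of mitotic entry, went from 114 and 118 FPKM to 48.7, 53.9 and 46.9 FPKM (-1.21, SE 0.16, adjusted p 0.00801). AURKC, the Aurora kinase of germ cells and early embryos, fell from 54.4 and 53.7 FPKM to 10.7, 19.6 and 13 FPKM (-1.88, SE 0.25). CDCA8 (-1.63) and AURKA (-1.10) fell too, and the phosphatase CDC25A rose (0.72). The morula values of CDK1 and PCNA lay close together, all below both 8/16-cell libraries. None of either list passed without either of the 8/16-cell libraries, and without morula replicates 1, 2 and 3 the falls were 3, 2 and 7 in replication and 4, 4 and 5 in mitosis.

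Genes of the translation machinery had list medians between -0.30 and 0.02, against -0.19 for all genes. Of 82 cytosolic ribosomal proteins, 1 fell but not under all 4 scalings, RPSA (-1.08), and none rose (median -0.30, and between -0.45 and -0.12 when 1 library was left out). Of 37 ribosome biogenesis genes, 7 fell but not under all 4 scalings and none rose (median -0.21), among them NHP2 (-1.15), NOP56 (-0.90) and MYC (-1.34). Translation initiation factors had 5 falls of 39 (12.8%, near the 13.1% of all genes; median -0.20), with EIF5B at -1.40. Mitochondrial ribosomal proteins had 4 rises and 6 falls of 78 (median -0.23), tRNA synthetases 3 and 2 of 20 (0.01), proteasome subunits 1 and 2 of 34 (0.02), and splicing factors 2 and 2 of 44 (0.01). Among folding chaperones, 2 of 35 rose, HSPB1 and, not under all 4 scalings, HSPA14, and 1 fell (median -0.17). None of these 8 lists had a call without either of the 8/16-cell libraries.

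Signalling and stress lists had shares of calls near those of all genes (4.85% higher and 13.1% lower), with large changes of single genes. ID3, a target of BMP signals, fell from 46.7 and 54.1 FPKM to 2.17, 4.26 and 11.1 FPKM (-3.13, SE 0.49, adjusted p 0.0119). FGFR4, a receptor for fibroblast growth factors, rose from 15.2 and 9.49 FPKM to 63.0, 49.4 and 26.3 FPKM (1.77, SE 0.37), and FGFR3 rose (1.16). The stages of these genes were separate, and morula replicate 3 lay nearest to the 8/16-cell level. Of 38 genes of FGF, BMP, activin and Wnt signalling, 3 rose and 3 fell in all (7.89% each; median -0.08; 5 of 43 lay below 1 FPKM). Of 26 p53 and apoptosis genes, 2 rose and 5 fell (7.69% and 19.2%; median -0.22), with GADD45A, a stress sensor, from 155 and 189 FPKM to 29.0, 62.2 and 63.8 FPKM (-1.79, SE 0.34). Of 30 redox defence genes, 2 rose and 5 fell (6.67% and 16.7%; median -0.24), with GSTM3, a glutathione transferase, from 124 and 143 FPKM to 35.5, 41.7 and 43.5 FPKM (-1.71, SE 0.17, adjusted p 0.00537), TXN at -1.31 and PRDX2 at 1.32. Of 14 imprinted genes, 1 rose and 2 fell but not under all 4 scalings, PLAGL1 (-1.94) and CDKN1C (-1.61). Without 8/16-cell replicates 1 and 2 these 4 lists together had 3 calls and 1 call.

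Markers of other cells were also measured, since cultured embryos can carry cumulus cells or sperm. Of 17 cumulus, granulosa and stromal genes, 3 fell (17.6%, against 13.1% of all genes), 1 of them under all 4 scalings, and none rose (median -0.68; 8 of 25 lay below 1 FPKM). TNFAIP6, made by cumulus cells at ovulation, went from 20.1 and 6.77 FPKM to 0.469, 2.09 and 0.578 FPKM (-2.73, SE 0.49, adjusted p 0.0164), and COL1A1 (-1.57) and HSD3B1 (-1.57) fell but not under all 4 scalings. VIM, the vimentin filament of such cells, chosen after its values were seen, stood at 31.9 and 41.5 FPKM and then at 3.44, 11 and 43.3 FPKM (-1.49, adjusted p 0.220). Morula replicate 3 thus lay above the 8/16-cell range for VIM, and LUM, a matrix proteoglycan, had the same order with 19.9 and 23.4 FPKM and then 1.25, 3.64 and 23.4 FPKM. Other markers were mixed in the order of the morulae. CYP11A1 had this order (2.25, 7.90 and 15.4 FPKM), TNFAIP6 was the highest in replicate 2, and AMH was the lowest there (1.27, 1.18 and 2.72 FPKM). Summed over the 9 cumulus and granulosa markers, the libraries held 69.4 to 84.7 FPKM at the 8/16-cell stage and 8.38 to 63.1 FPKM at the morula stage, and FSHR was at 0 in all 5. The part of such cells in the changes above was not tested.

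No interferon response gene of 20 tested passed in limma (median -0.79, against -0.19 for all genes; 8 of 28 lay below 1 FPKM). Estimates lay below 0 for 16 of the 20, and for 7388 of all 11715 genes. ISG15, which interferon induces and which is attached to proteins like ubiquitin, stood at 59.5 and 84.9 FPKM and then at 12.8, 31.4 and 45.8 FPKM (-1.39, SE 0.47, adjusted p 0.0765), and IFI27 at 127 and 89.4 FPKM and then at 7.54, 20.6 and 82.2 FPKM (-2.11, adjusted p 0.103). In both, morula replicate 1 was the lowest and replicate 3 the highest, and without replicate 3 the list had 3 falls. Among sperm and testis genes, 2 of 6 rose (33.3%, against 4.85% of all genes). TNP1, a transition protein of sperm chromatin, was at 0 and 0.441 FPKM and then at 9.5, 10.2 and 5.16 FPKM (adjusted p 0.00601), and TNP2 was listed at 0 in both 8/16-cell libraries and stood at 1.85, 1.54 and 3.16 FPKM in the morulae (adjusted p 0.0163). Another 12 of the 18 genes of that list lay below 1 FPKM, with ODF1 at 0 in all 5 libraries. Of 5 tested blood and immune genes ALAS2, the first enzyme of heme synthesis in red cells, rose, from 0.0846 and 0.136 FPKM to 1.24, 1.87 and 2.86 FPKM (1.39, SE 0.30), and 15 of 20 lay below 1 FPKM. The rises of TNP1, TNP2 and ALAS2 and the 3 falls of the cumulus list did not pass without either of the 8/16-cell libraries.

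The same genes in NC embryos mostly moved the same way. In the NC libraries, fitted alone on the same 11715 genes, 2707 passed (23.1%), 1039 of them higher (8.87%) and 1668 lower (14.2%) in morulae. Of the 2106 KD calls, 1182 also passed in NC with the same sign (56.1% of the KD calls and 43.7% of the NC calls) and 0 with the opposite sign. The sign was shared by 96.6% of the KD calls and by 77.3% of all genes. Across genes, which are not independent replicates, the KD and NC changes had a Pearson r of 0.752 and a Spearman rho of 0.740.

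A test of the difference between the KD and NC stage changes, fitted over all 10 libraries, called 0 of 11715 genes (0%) in limma, with 1111 at an unadjusted p under 0.05 (9.48%) and a smallest adjusted p of 0.312. Same-numbered KD and NC morula libraries deviated together (r of 0.426, 0.357 and 0.362), and the 8/16-cell pairs did so little (0.0568). With stage and replicate number as a block, a pairing taken from these data, 28 genes passed. None of them passed without the block. The KD change was above the NC change for 8 and below it for 20. In all 20 the NC change was positive. FN1 changed by 1.91 in KD and 4.77 in NC embryos, where it reached 222, 89.9 and 74.0 FPKM in the morulae (difference -2.86, blocked SE 0.27, limma adjusted p 0.0198 with the block and 0.450 without it). Each NC morula library lay above each KD morula library. COL4A1, a collagen of basement membrane (difference -1.91), the desmosomal cadherin DSG2 (-1.75), ANXA6 (-1.74), S100A14 (-1.73) and the contractile genes TPM4 (-2.42) and MYL9 (-2.06) had smaller estimated changes in KD as well. Their limma adjusted p-values without the block lay between 0.325 and 0.481.

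NASP, which carries histones before they reach DNA, lay to opposite sides. It stood at 75.7 and 54.2 FPKM and then at 47.0, 38.9 and 34.9 FPKM in KD embryos (-0.67, adjusted p 0.0659), and at 50.3 and 44.0 FPKM and then at 89.8, 98.8 and 77.5 FPKM in NC embryos (0.90, adjusted p 0.0195). All NC morulae were above, and all KD morulae below, both 8/16-cell libraries of their treatment. The difference of -1.56 had an adjusted p of 0.312 without the block and 0.0430 with it. MRFAP1L1 (difference -1.55), NME3, a nucleoside diphosphate kinase (-2.71), GPX1, which removes peroxides (-2.40), RANBP1 (-1.44), MPC1 (-1.54), SUCLG2 (-1.82) and REX1BD (-1.79) also had an estimate below 0 in KD and above 0 in NC embryos, with GPX1 (-0.17) and MPC1 (-0.09) close to 0 in KD. RNH1 (-2.45), MDH1 (-1.46), TMEM254 (-1.54) and VTI1B (-1.65) had estimates above 0 in both treatments, smaller in KD. On the other side PCDH8, a protocadherin, had a difference of 1.75 and FILIP1 of 1.57, and the other 6, like the 20th below, have LOC symbols. Without the block PCDH8 had a limma p of 0.0959 (adjusted p 0.577). The other genes named in this paragraph had limma adjusted p-values between 0.312 and 0.481 without it.

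Several lists had unlike counts in the 2 treatments, while no member passed the unblocked test of the difference. Of all genes, 4.85% rose and 13.1% fell in KD embryos, and 8.87% rose and 14.2% fell in NC embryos. Core histones had 7 rises in KD and none in NC embryos (median 0.93 and -0.25), and linker histones 3 rises and 1 fall against no rise and 3 falls (0.59 and -0.71). H1F0 changed by 2.31 in KD and by 0.38 in NC embryos, where it stood at 28.8 and 26.0 FPKM and then at 20.2, 57.9 and 39.3 FPKM (difference 1.93, SE 0.51, adjusted p 0.429). The KD morulae lay above every NC morula. Oxidative phosphorylation had 7 rises in KD and 23 in NC (0.16 and 0.77), the lysosome list 7 and 16 (0.13 and 0.67), and folding chaperones 2 and 9 (-0.17 and 0.14). Counts here are for FPKM as deposited. With an equal sum, quantile normalisation and equal medians, oxidative phosphorylation had 15, 18 and 10 rises in KD (medians 0.35, 0.37 and 0.35). The oocyte list had 10 falls in KD and 8 in NC (-2.09 and -2.30), and the subcortical complex 8 and 9 (-1.11 and -1.47). For these 7 lists the smallest adjusted p of the difference over any member was 0.429.

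NANOG changed by -0.36 in KD and by -1.89 in NC embryos (difference 1.53, adjusted p 0.481), and CDX2 by -0.20 and 0.82 (difference -1.02, adjusted p 0.584). POU5F1 (1.57 and 1.92), OTX2 (3.12 and 3.63), SOX17 (1.38 and 1.17) and GATA6 (0.55 and 0.56) had changes of like size, with adjusted p-values of the difference between 0.821 and 0.997. A p that misses the threshold does not show that these changes were the same.

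**Figure D5:**
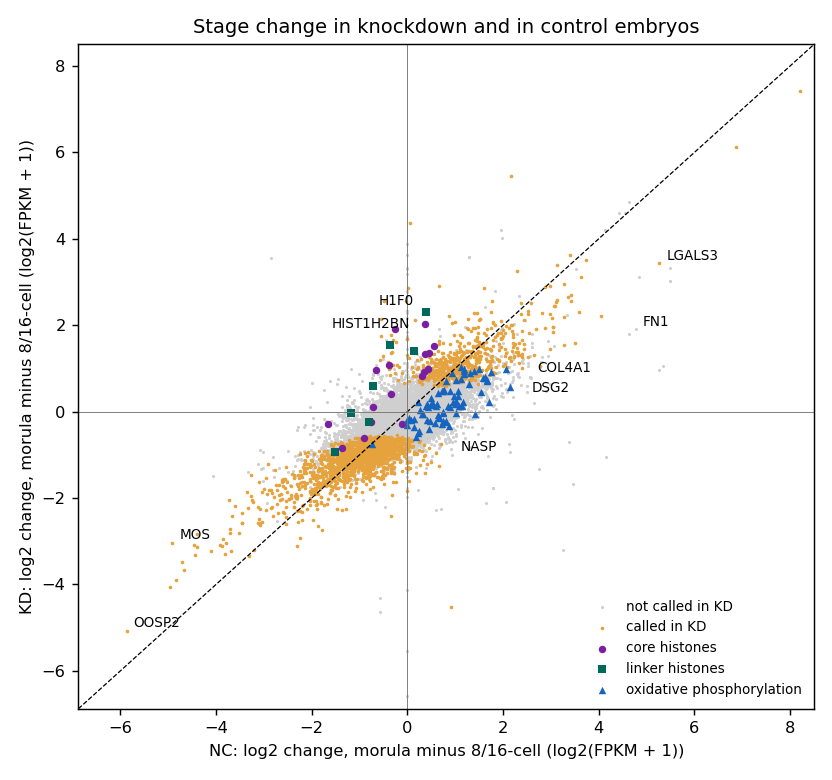
Log2 change from 8/16 cells to morula in KD embryos (vertical axis) against that in NC embryos (horizontal axis), both on the log2(FPKM + 1) scale, 1 point per gene, with the dashed line at equal change. Orange points passed in KD (2106 genes). Core histones (purple circles) and linker histones (green squares) lie mostly above the dashed line, and oxidative phosphorylation genes (blue triangles) mostly below it.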

How the data were processed

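RNA of bovine embryos was isolated with a Picopure kit, messengers were taken up with oligo(dT) beads, and a NEBNext Ultra kit was used for the libraries, per the labels' protocols. Values are FPKM per gene symbol, made by the authors and deposited as 1 table. The submitters' processing notes name Trimmomatic, HISAT2, featureCounts and Cufflinks and the builds ARS-UCD1.2 and bosTau9, with no roles or versions, and strand use in counting is not given in the sources used here.

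Columns were matched to samples by the stage, treatment and replicate in their names. Symbols on several lines and the microRNA genes MIR2887-1 and MIR2887-2 were left out. Values were tested as log2(FPKM + 1) with limma 3.58.1 in R 4.3.3 (moderated with a mean trend, two-sided, Benjamini-Hochberg over the 11715 genes). The KD libraries were fitted alone, the NC libraries alone, and the difference between the stage changes over all 10. The fits were tested on simulated data.

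The members and gene lists were chosen with earlier results of these data known. Named genes were the 10 largest rises and falls (at least 10 FPKM, stages not overlapping, no LOC symbols), a set of lineage genes, up to 8 members per list by smallest p with all members of small families, and, for the KD and NC difference, the blocked calls. Some genes this rule names are counted in their lists and not reported by name here. Alternatives were another pseudocount (0.1), other filters, 3 other scalings, other moderation, joint fitting, replicate blocks and leaving out each library.

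Deviations from the group means correlated at 0.426, 0.357 and 0.362 for same-numbered KD and NC morula libraries, against 0.0568 for the 8/16-cell pairs, so the block pairs KD with NC libraries of 1 stage and number. This pairing comes from the data, not from the labels.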

Additional observations from a re-analysis of the deposited data

Results flagged for a closer look

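The microRNA genes MIR2887-1 and MIR2887-2, left out of every comparison, held very high values in both KD 8/16-cell libraries and were listed at 0 in the other 8 libraries. MIR2887-1 stood at 45345.5 FPKM in replicate 1 and 18126.6 FPKM in replicate 2. MIR2887-2 stood at 136037 FPKM in replicate 1 and 18126.6 FPKM in replicate 2. A value of this size takes a share of a library's total, and the scaling of libraries to an equal sum was computed without both genes.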

How the results depend on the processing

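The count of 2106 KD calls was 776 with no filter on low values, 1113 with libraries set to an equal sum, and 42 to 1475 with 1 library left out, where fewer libraries were fitted. The NC count of 2707 was 274 to 3028 with 1 library left out. The KD and NC difference, with 0 calls, had 28 with the stage and replicate number as a block and 0 to 7 with 1 library left out, the 7 without KD 8/16-cell replicate 2. The other alternatives kept the KD and NC counts within 1.5 times of these and the difference at 0.

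Across stages the replicate numbers pair no samples known to belong together. Their deviations correlated at 0.104 and 0.149 in KD and at 0.129 and 0.0391 in NC embryos, and the replicate block gave 2322 KD and 2265 NC calls. The lists that moved most with it were cytosolic ribosomal proteins, with 20 of 82 members called lower (median -0.40) against 1, and the interferon response, with 10 of 20 called lower against 0.

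Among the genes named by their KD change, 4 changed sign, and none of them passed. With 1 library left out, CDX2 ranged from -0.46 to 0.0502, GATA3 from -0.87 to 0.13, CDH1 from -0.00405 to 0.27 and HIST1H1B from -0.35 to 0.27. HIST1H1B was 0.12 with an equal sum, 0.15 with quantile normalisation and 0.15 with equal medians. The causes were not tested. Read depth is unknown, so no limit from depth can be set on genes near 0.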

Other observations

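Genes with LOC symbols, which the choice of named genes left out, held the largest rises. LOC112448304 (log2 change 7.43), LOC112442787 (6.12), LOC112443558 (5.46) and LOC101902037 (4.36) rose in KD embryos from 8/16-cell libraries that were both listed at 0, so that no fold is given. The size of such a change depends on the pseudocount. Over the alternatives it ranged from 7.10 to 10.7 for LOC112448304 and from 5.65 to 9.42 for LOC112442787. These genes passed the filter only through their morula values.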
